A study of Mus musculus with 111 samples.

Results

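The comparison set RNA-seq libraries of the mouse tuberomammillary nucleus (TMN) that carried the histone mutant H3.3 Q5A against libraries that carried a control virus, all taken at zeitgeber time 4 (ZT4), where ZT0 is lights on. The members were chosen by their labels of virus and time alone. They were 19 of the 111 deposited files of the series and gave 18 of its 110 libraries, with 7 for Q5A, 5 for GFP and 6 for wild-type H3.3. Adult mice, labelled as genotype C57BL/6, had received 1 of 3 adeno-associated viruses (AAVs) bilaterally into the TMN, which was collected weeks later. All 3 vectors carried GFP behind an internal ribosome entry site, the GFP vector carried no histone, and the others added wild-type H3.3 or H3.3 Q5A with a Flag-HA tag. The endogenous histone genes were intact in every animal, and GFP-positive tissue was dissected, so that each library mixes infected and uninfected cells of several types. Each library came from 1 animal. The study used male and female mice, and the labels give no sex.

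The TMN is a small group of neurons in the posterior hypothalamus that makes histamine and is known for its part in wakefulness. Mice are active in the dark, and ZT4 lies in the light phase, when they mostly sleep. Histone H3 can carry a monoamine such as serotonin or histamine on the glutamine next to lysine 4, a residue whose methylation marks active promoters. In Q5A this glutamine is an alanine, so the viral histone cannot take up a monoamine there, and the question put by the comparison was how its expression changes transcription at this time of day.

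Libraries were not evenly spread over 3 cohorts. Cohort 1 held 4 Q5A, 5 GFP and 4 H3.3 libraries, cohort 2 held 2 Q5A and 1 H3.3, and cohort 3 held 1 Q5A and 1 H3.3, so GFP was present in cohort 1 alone. Total counts in gene rows were 1025321 to 1845687 for Q5A, 1341591 to 1638552 for GFP and 1094181 to 1640935 for H3.3, and Q5A and the pooled controls differed by less than their spread (exact permutation test, 2-sided, p = 0.633, adjusted over 3 depth measures 0.633). Replicates 2 and 3 of cohort 2 in Q5A differed in 3 rows by 6 reads, which is under the sampling noise, so their mean entered as 1 sample. Several libraries stood apart. The first principal component (29.1% of the variance) separated the 2 libraries of cohort 3, the second (12.3%) replicate 4 of GFP and replicate 4 of cohort 1 in H3.3, and the third (8.65%) the merged Q5A library. Of each library's uniquely placed reads, 3.75 to 4.95% were counted in gene rows. The kit marks strand and reads were counted on the gene's own strand. Whether that option matched the kit's orientation was not tested. A row may therefore hold reads from the strand opposite its gene, and a low row need not mean a gene of low expression. Annotated rows with an exon on the opposite strand of another gene held 80.3% of the annotated reads, so every value below is that of a row as deposited, and the partner on the other strand is named wherever there is such a partner.

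Bc1 is shown first, because it was the single row called at an adjusted p under 0.01 in any of the main comparisons. It is a short noncoding RNA of rodent neurons that RNA polymerase III transcribes from a promoter inside the gene, and it is known as a repressor of translation in dendrites. The gene lies on chr7:144914470-144914637, plus strand, build GRCm38, and is printed below as the GENCODE transcript. Capitals mark the letters GCNNAGTGG of the A box (bases 16 to 24) and GTTCGNNCC of the B box (bases 58 to 66), the internal promoter elements. The row of Per1, the light- and clock-driven repressor of the circadian clock, is taken up below, and the promoter of its upstream start (chr11:69098699-69098998, plus strand, RefSeq, GRCm38.p6) is shown with its E-box, CACGTG, in capitals at bases 85 to 90 of the window. The E-box is the element bound by the CLOCK-BMAL1 dimer.
Bc1 RNA: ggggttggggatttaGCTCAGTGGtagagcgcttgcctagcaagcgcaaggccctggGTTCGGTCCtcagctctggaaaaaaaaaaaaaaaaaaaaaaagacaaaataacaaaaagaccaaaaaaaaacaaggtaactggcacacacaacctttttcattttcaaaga
Per1 promoter: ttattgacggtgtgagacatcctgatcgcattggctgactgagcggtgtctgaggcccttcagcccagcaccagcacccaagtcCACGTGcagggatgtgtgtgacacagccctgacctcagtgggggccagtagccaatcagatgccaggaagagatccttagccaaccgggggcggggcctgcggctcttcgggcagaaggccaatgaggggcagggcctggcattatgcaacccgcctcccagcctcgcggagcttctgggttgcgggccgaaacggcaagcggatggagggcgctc
Searched on both strands in windows of 250 bases before to 50 after each start, the E-box was found for 8.09% of 27025 genes with a promoter in the table, the B box for 1.61% and the A box for 6.39%. The E-box was in the window of 5 of 17 clock genes with a promoter in the table (Bhlhe41, Ciart, Cry1, Per1 and Tef).

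Differences between Q5A and the pooled controls were small and none passed the test. Of 9673 rows tested, 0 had an adjusted p under 0.01 (edgeR quasi-likelihood, Benjamini-Hochberg) and the smallest adjusted p was 0.420. DESeq2, which tested 29057 rows without the filter on low counts, also called 0. Of those rows, 597 were higher and 918 lower at an unadjusted p under 0.05. At an unadjusted p under 0.05, 527 rows were higher in Q5A (5.45% of those tested) and 495 lower (5.12%). The median size of a difference was 0.19 on the log2 scale against a median standard error (SE) of 0.22. Beyond a log2 difference of 1 there were 9 rows higher and 19 lower, 8 and 15 of them at p under 0.05. Rows whose Q5A and control libraries did not overlap at all numbered 2 (0.0207%), Pgam5 (opposite Gm26718) higher and Zcchc3 lower.

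Each control virus was also compared apart, with all GFP libraries in cohort 1. Against GFP, 611 of 10214 rows were higher (5.98%) and 505 lower (4.94%) at p under 0.05, and 1 row, Bc1, passed the adjusted threshold (0.00979%). Against H3.3, 198 of 9129 rows were higher (2.17%) and 202 lower (2.21%), and 0 passed, with a smallest adjusted p of 0.589. These counts rested on the cohort 3 libraries: without that of H3.3 they were 984 higher and 528 lower, without that of Q5A 110 and 154, and over each library left out in turn they ranged from 104 to 984 higher and from 116 to 528 lower. Between the controls, H3.3 minus GFP, 54 of 9074 rows were higher (0.595%) and 48 lower (0.529%) at p under 0.05, and 0 passed. The median size of a difference was 0.23 against GFP, 0.19 against H3.3 and 0.14 between the controls, on the log2 scale. Rows with a log2 difference larger than 0.5 in size made up 14.9% against GFP, 8.19% against H3.3 and 4.69% between the controls. These comparisons share libraries, and the Q5A libraries are the same in the first 2 of them.

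The direction of a difference followed the class of the row. Coding rows with no exon opposite another gene had a median log2 difference of 0.16 (3944 rows, quartiles -0.03 and 0.33), and 347 of them were higher at p under 0.05 (8.80%) against 48 lower (1.22%). Coding rows with such an exon centred on 0.01, with 121 of 3169 higher and 117 lower. Rows of long noncoding and antisense genes (289 rows, 4 higher, 33 lower) and rows whose clone-based name is not in the annotation (2134 rows, 47 higher, 285 lower) both had a median of -0.15. Among 109 rows that are named as the opposite strand of a gene, 0 were higher and 18 lower, with a median of -0.21. All rows tested were also split by abundance into 3 equal parts. From the lowest part to the highest, the coding rows with no opposite exon had 141, 127 and 79 higher against 13, 25 and 10 lower. The parts need not hold equal numbers of these coding rows, so the counts are not shares.

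**Figure D1:**
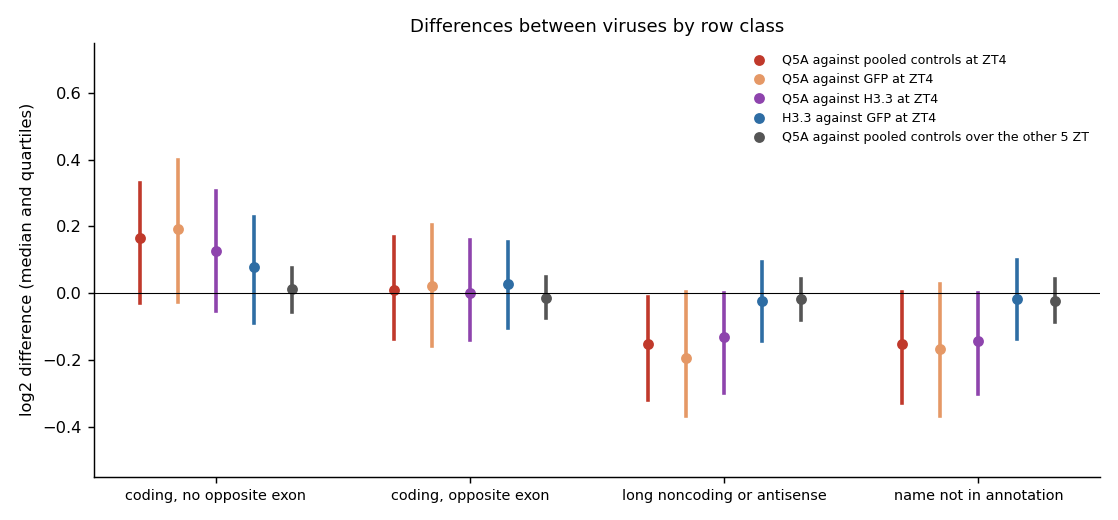
Log2 difference (y axis) by class of row (x axis) for 5 comparisons, as the median (point) and quartiles (line) over the rows tested. The first 3 comparisons put coding rows with no opposite-strand exon above 0 (medians 0.16, 0.19 and 0.13). They put unannotated rows below 0 (-0.15, -0.17 and -0.14). The comparison over the other 5 times lies near 0 in every class. It is a mean over times at which the medians of these coding rows had both signs, as given by time below.

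The same order of classes was present against each control. Against GFP the coding rows with no opposite exon had a median of 0.19 with 404 higher and 64 lower, and against H3.3 a median of 0.13 with 126 higher and 27 lower. The share of a library's gene reads that fell in this class moved with it, at 10.2 to 19.7% in Q5A, 9.20 to 14.1% in GFP and 9.23 to 19.1% in H3.3. The Q5A mean of 13.4% ± 3.47 (SD, n = 7) and the control mean of 11.8% ± 2.80 (SD, n = 11) differed by less than the spread (exact permutation test, 2-sided, p = 0.305, adjusted over 12 comparisons of shares 0.457). Unannotated rows took 33.8% ± 1.91 of the reads in Q5A and 36.0% ± 1.92 in controls (exact permutation p = 0.0356, adjusted 0.273). Each class was also scaled to its own total, with TMM scaling inside the class, a setting added after the data were seen. Then 489 rows were higher (5.03%) and 472 lower (4.85%). The coding rows with no opposite exon had a median of 0.00 with 179 higher and 203 lower. Scaling inside a class sets its median near 0, so these values cannot test the class difference. The size of that difference in the main fit rested on single libraries. Without the cohort 3 library of Q5A the median was 0.07 with 137 higher and 43 lower. Without that of H3.3 it was 0.24 with 930 higher and 101 lower. Within cohort 1, where 688 of 9828 rows were higher (7%) and 626 lower (6.37%), it was 0.16 with 422 higher and 70 lower. What sets the share of this class was not tested.

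**Figure D2:**
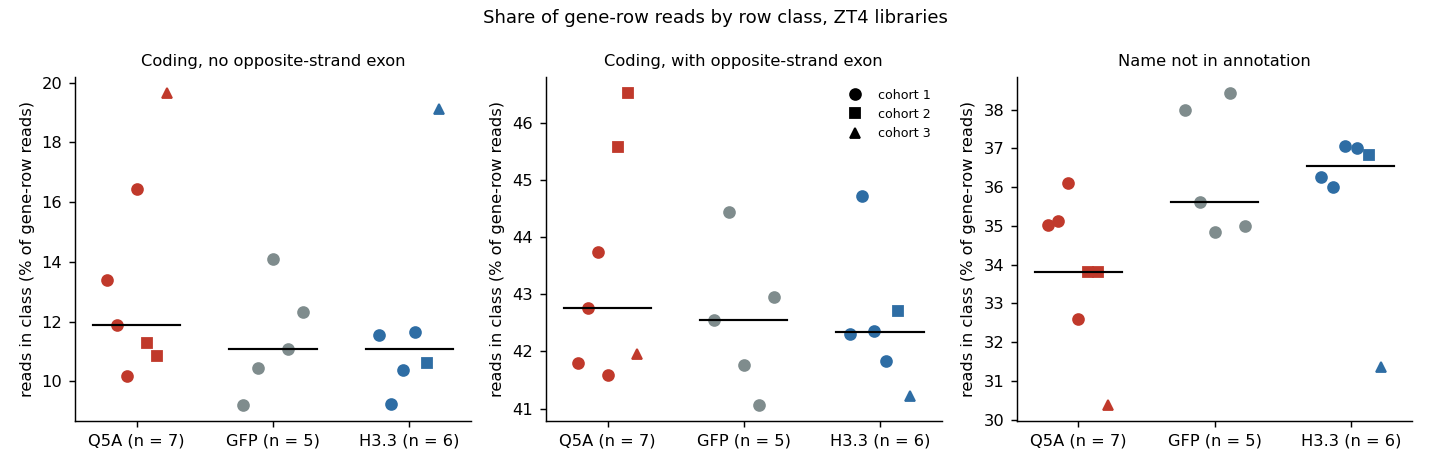
Percent of each ZT4 library's gene-row reads (y axis) in 3 classes of row, by virus (x axis), with the cohort as the symbol and the group median as a line. The 2 libraries of cohort 3 hold the highest share of coding rows with no opposite-strand exon (19.7% in Q5A and 19.1% in H3.3) and the groups overlap in every class.

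Among annotated rows, the 10 with the smallest p that were higher in Q5A included 8 coding rows with no opposite exon. All had an adjusted p of 0.420, so that none passed the test, and their median difference was 0.68 on the log2 scale, or 0.60 with each class scaled to its own total. Levels are given as CPM, the counts divided by the TMM-scaled library total and set to a common total. Bex2 (chrX:136066564-136068236), a small adaptor protein of brain, had 112, 145 and 196 CPM as its lowest, median and highest value in Q5A and 78.1, 99.5 and 123 in controls, and 5 of the 7 Q5A libraries lay above every control. Its log2 difference was 0.61 ± 0.14 (SE, adjusted p = 0.420) and was 0.60 against GFP and 0.60 against H3.3. Bex1 (opposite Tceal7), its close relative, had 31.8, 38.7 and 58.9 CPM in Q5A and 21.3, 29.1 and 36.5 in controls, a difference of 0.61 ± 0.16. The 2 genes lie near each other on the X chromosome.

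Nptx2, a secreted pentraxin that gathers AMPA receptors at synapses, had the largest difference of the 10. Its values were 4.30, 13.6 and 28.8 CPM in Q5A and 0, 1.6 and 10.5 in controls, so that 4 Q5A libraries lay above every control. The log2 difference was 1.55 ± 0.39 (SE, adjusted p = 0.420), on a median of 19 and 2 reads. Itih3, a hyaluronan-binding serum and matrix protein, had 35.9, 60.3 and 89.5 CPM in Q5A against 11.6, 29.9 and 52.0 in controls, with 5 of 7 libraries above the control range. Tsn (translin, which binds RNA and DNA) and Msi1 (Musashi 1, an RNA-binding repressor of translation) differed by 0.93 ± 0.23 and 0.95 ± 0.24 at medians of 13 and 12 reads in Q5A and 5 in controls for each.

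The rest of the higher rows had differences between 0.64 and 0.69. Ap2s1, the small subunit of the AP-2 clathrin adaptor, had 30.9, 43.4 and 56.5 CPM in Q5A and 19.4, 25.1 and 42.5 in controls. Src, the tyrosine kinase, had 15.4, 23.0 and 31.5 CPM against 9.50, 13.6 and 19.4, with 6 of 7 Q5A libraries above every control. Mras, a Ras-family GTPase, had 24.1, 43.2 and 48.9 CPM against 18.2, 23.6 and 37.3. The last, Rpl19-ps11, is a processed copy of a ribosomal protein gene, whose reads may belong to a near-identical copy.

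The 10 annotated rows with the smallest p that were lower in Q5A had a median difference of -0.81, or -0.90 with classes scaled apart, again at an adjusted p of 0.420. Zcchc3 (chr2:152411955-152415027), a zinc-knuckle protein that binds nucleic acids, had 14.6, 28.7 and 30.7 CPM in Q5A and 31.6, 38.1 and 53.4 in controls. The groups did not overlap, and the log2 difference was -0.64 ± 0.17 (SE, adjusted p = 0.420). Zfhx2 (opposite Zfhx2os and Gm20687), a homeobox transcription factor, had 96.9, 226 and 375 CPM in Q5A and 165, 434 and 608 in controls, a difference of -0.87 ± 0.22 that was -1.07 against GFP and -0.68 against H3.3. Myh6 (opposite Gm49130), named for a heart myosin, had 18.5, 39.9 and 102 CPM against 59.0, 80.7 and 126, with 6 of 7 Q5A libraries below every control. B9d1, a protein of the base of the cilium, had 12.5, 16.8 and 32.3 CPM against 22.2, 31.6 and 47.5, and 6 of 7 were again below the control range.

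Several lower rows came from few reads. Has1, a hyaluronan synthase, differed by -0.81 ± 0.21 at medians of 20 reads in Q5A and 36 in controls, and Pglyrp1, a peptidoglycan-binding protein of innate immunity, by -0.79 ± 0.24 at 14 and 32. Il16 (opposite Stard5 and 2310044K18Rik), a cytokine precursor, differed by -0.81 ± 0.23 at 14 and 22 reads. Ctnnal1, a relative of alpha-catenin, differed by -0.87 ± 0.25 at 7 and 13 reads, and Hamp2 (opposite Gm44662), a hepcidin gene, by -1.19 ± 0.34 at 5 and 15. Rapgef4os2, antisense to the cAMP-gated exchange factor gene Rapgef4, had more, with 434, 483 and 849 CPM in Q5A and 563, 825 and 1596 in controls. Of the rows without annotation, the row with the smallest p of all (5.09e-05) was lower, with 34.5, 54.0 and 131 CPM in Q5A and 93.3, 145 and 293 in controls and a difference of -1.16 ± 0.24. RP24-573N21.3 differed by -1.08 ± 0.27, and RP23-387P23.1 and RP24-396L14.1 were higher by 0.77 ± 0.22 and 1.24 ± 0.36.

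**Figure D3:**
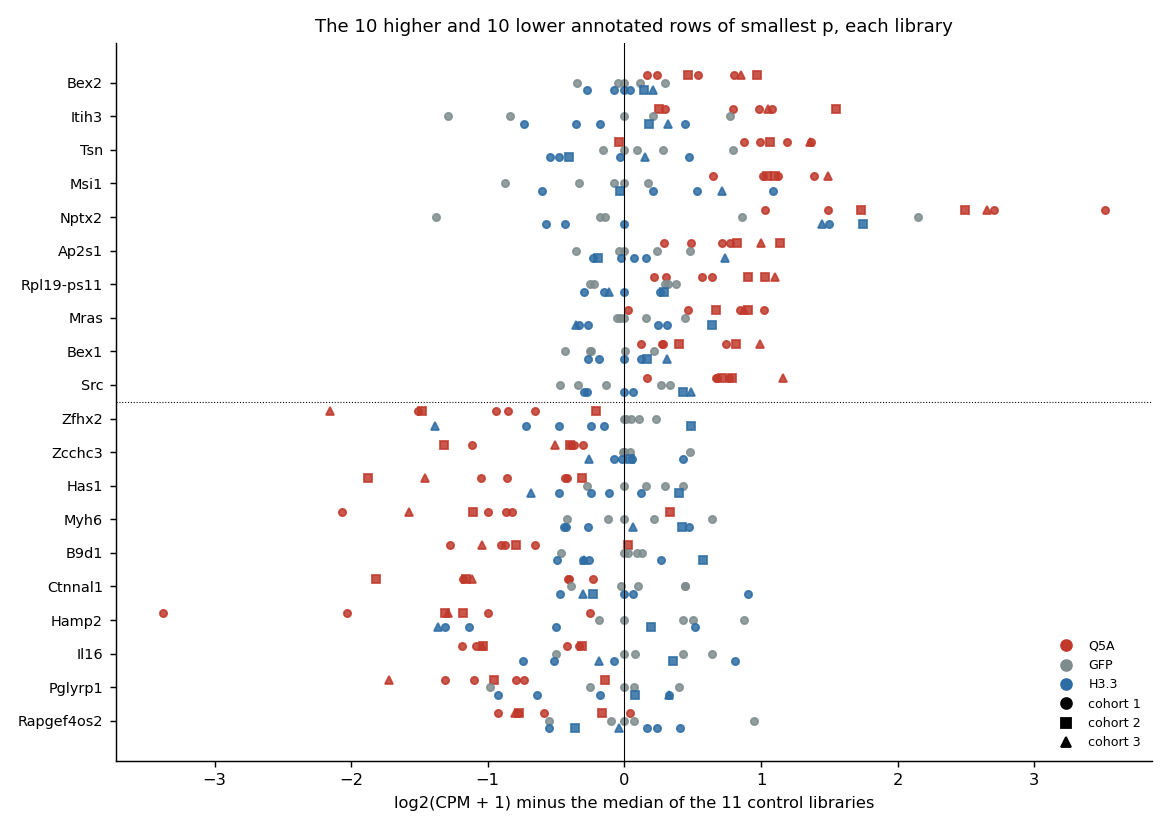
Log2(CPM + 1) of each ZT4 library minus the median of the 11 control libraries (x axis) for the 10 higher and 10 lower annotated rows of smallest p (y axis), with virus as the colour and cohort as the symbol. Zcchc3 is the only 1 of the 20 rows whose Q5A libraries all lie below all controls, and in each other row at least 1 Q5A library lies within the control range.

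Bc1 was called against GFP with all libraries, and against H3.3 within cohort 1. It stood at 657, 686, 528 and 719 CPM in the 4 cohort 1 libraries of Q5A, at 271 and 276 in the 2 of cohort 2 and at 1241 in that of cohort 3. In GFP it was 143, 142, 137, 60.6 and 160 CPM. In H3.3 it was 168, 196, 198 and 154 CPM in cohort 1, 202 in cohort 2 and 1311 in cohort 3. Every Q5A library was above every GFP library and above 5 of the 6 H3.3 libraries, and the cohort 3 libraries of both viruses were the highest. The depth behind these values was 378 to 2675 reads per library in Q5A and 94 to 2158 in controls.

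Against GFP the log2 difference of Bc1 was 2.3 ± 0.32 (SE, edgeR adjusted p = 0.00258). It was 0.70 ± 0.49 against H3.3 (adjusted p = 0.945), 1.25 ± 0.43 against the pooled controls (adjusted p = 0.420) and 1.64 ± 0.54 for H3.3 minus GFP (adjusted p = 1.00). Against H3.3 it was 1.86 ± 0.16 within cohort 1 (adjusted p = 9.72e-07) and 1.54 ± 0.24 without the cohort 3 libraries (adjusted p = 0.0335). The pooled value moved with the cohorts too. Without the cohort 3 library of H3.3 the pooled difference was 2.05 with an adjusted p of 6.61e-05, within cohort 1 it was 2.12 with 3.1e-07, and with cohort as a covariate it was 1.58 with 0.00102. The call against GFP was lost without GFP replicates 1, 2, 3 or 5 or without Q5A cohort 1 replicate 4, each in turn, where the adjusted p reached 0.0173 and the log2 difference ranged from 2.04 to 2.43 over all libraries left out in turn. It was also lost with a robust fit (0.240) and with classes scaled apart (0.170). The annotated copy Bc1-ps1, which matches 68 of 72 bases (94.4%) of the best aligned window of Bc1, had 0 reads in every ZT4 library.

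**Figure D4:**
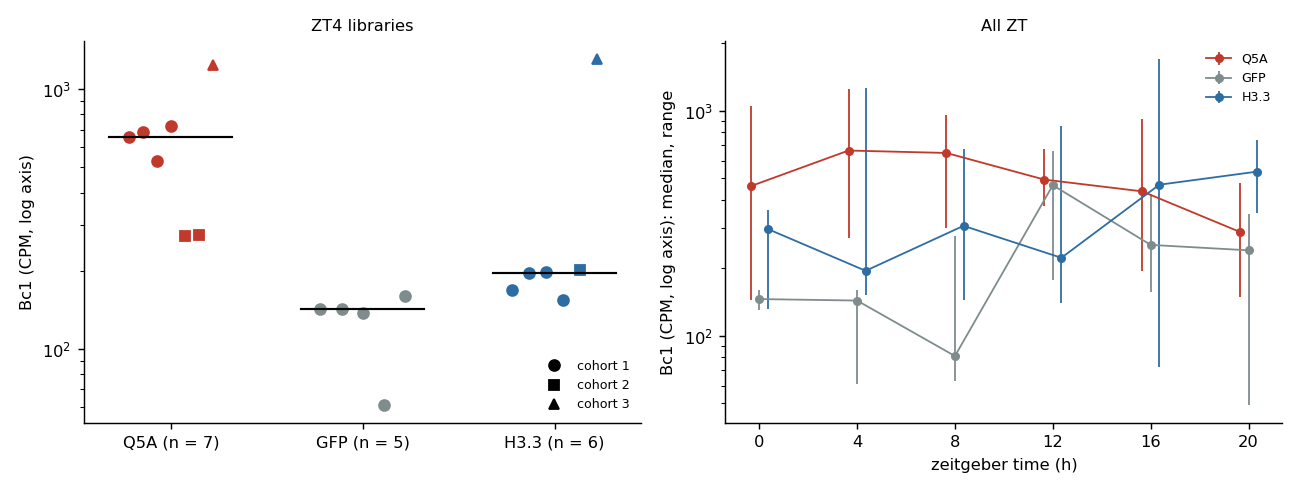
Bc1 in CPM on a log axis, at left for each ZT4 library by virus with the cohort as the symbol and the median as a line, at right as the median and range of each virus over the 6 times, scaled over all 110 libraries. At ZT4 the Q5A median of 657 CPM compares with 142 in GFP and 197 in H3.3, and the 2 libraries of cohort 3 lie highest, at 1241 and 1311 CPM.

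A few other rows shared with Bc1 a larger difference within cohort 1. Ubxn8, a protein of the endoplasmic reticulum that takes part in protein degradation, had 90.9, 291 and 418 CPM in Q5A and 32.2, 165 and 304 in controls, with both minima in cohort 3. Its pooled difference was 0.70 ± 0.26 (adjusted p = 0.430), and 0.91 with cohort as a covariate (adjusted p = 0.00457). Srpk2 (opposite Kmt2e) had 84.4, 168 and 241 CPM in Q5A and 67.5, 99.2 and 149 in controls, with the cohort 3 libraries lowest in each. Its difference was 0.57 ± 0.18 (adjusted p = 0.420), and 0.81 within cohort 1 (adjusted p = 0.0287). The unannotated row RP24-80P9.3 differed by 0.66 ± 0.21, or 0.88 within cohort 1 (adjusted p = 0.0589). Ubxn8 and RP24-80P9.3 were named after their values were seen.

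Set against H3.3 alone, the rows of smallest p were Tsn (1.08 ± 0.29), Ktn1, a kinesin-binding protein of the endoplasmic reticulum (1.11 ± 0.30), and Tac1, the substance P precursor (1.07 ± 0.29) among the higher, each at an adjusted p of 0.945. Lower were RP24-573N21.3 (-1.39 ± 0.28), RP23-118M14.1 (-2.75 ± 0.59) and the unannotated row of smallest p against the pooled controls (-1.12 ± 0.28). Against GFP they were, beside Bc1, Ovca2 (opposite 1700016P03Rik, 1.35 ± 0.27) and Msi1 (1.27 ± 0.28), with Zfhx2, that unannotated row and Hamp2 lower at -1.07, -1.21 and -1.56. Between the controls, Gbx2 (opposite D130058E05Rik), RP23-118M14.1 and Gm17651 (opposite Prkab2) were higher in H3.3, by 2.12 ± 0.42, 2.75 ± 0.64 and 0.89 ± 0.28, and Mtmr11 (opposite Gm17690), C1ql3 (opposite Gm37811 and Gm37824) and RP23-140P6.4 lower, by -0.60, -0.98 and -0.67, none of which passed. RP23-118M14.1 was too low to be tested against GFP and had medians of 26.0 CPM in H3.3, 1.4 in Q5A and 1.62 in GFP.

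The H3.3 genes were examined for the expressed histone. H3f3b had 12.9, 18.9 and 28.8 CPM in Q5A, beside 11.8, 14.6 and 23.2 under GFP and 8.78, 14.8 and 31.0 under H3.3, with differences of 0.24 ± 0.22 for Q5A minus controls and 0.15 ± 0.32 for H3.3 minus GFP. H3f3a (opposite Gm17275 and H3f3aos) had medians of 7 reads in Q5A and 4 in controls and was too low for the pooled test. The antisense row Gm17275, which lies opposite H3f3a and was named after its values were seen, had 41.7, 156 and 222 CPM in Q5A, beside 80.1, 105 and 126 under GFP and 53.5, 113 and 129 under H3.3. Its difference was 0.50 ± 0.22 for Q5A minus controls (adjusted p = 0.444) and -0.01 ± 0.19 for H3.3 minus GFP, and within cohort 1 it was 0.84 (adjusted p = 0.0111). Neither H3f3b nor Gm17275 separated the libraries of both histone viruses from those of GFP. The vectors' own sequence was not analysed here, so that the labels of virus were not checked by expression.

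Of the 29 genes of monoaminylation and H3K4 methylation, 21 were tested and 0 were higher or lower at p under 0.05, with a median of 0.17 (0.08 with classes scaled apart). The list holds the H3.3 genes and chaperones, the writer Tgm2, the methyltransferase complexes around Wdr5 and the demethylases. The smallest p belonged to Taf3 (opposite C630004M23Rik and Gm13262), a reader of trimethylated H3K4, at 0.44 ± 0.24 (adjusted p = 0.499), and then to the complex subunits Men1 at 0.40 ± 0.23 and Ash2l at 0.32 ± 0.21. The demethylase Kdm1a stood at -0.26 ± 0.18. Tgm2 (opposite Gm20412 and Rprd1b), with medians of 2.1 CPM (Q5A), 2.21 (GFP) and 3.43 (H3.3), and Wdr5, with 3.59, 2.43 and 2.32, were too low to be tested.

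In the circadian clock, CLOCK and BMAL1 drive the Per and Cry genes, whose products repress them, and drive output genes such as Dbp. Of 20 clock genes, 11 were tested, 3 were higher at p under 0.05 and 0 lower, with a median of 0.33, or 0.29 with classes scaled apart, against a median of 0.02 and 5.45% higher over all rows. Within cohort 1, and with classes scaled apart, there were 3 higher and 1 lower. Per1 had 3.44, 12.5 and 15.96 CPM in Q5A and 1.6, 5.58 and 10.5 in controls, with 5 of 7 Q5A libraries above every control. The difference was 0.80 ± 0.27 (SE, adjusted p = 0.420), on a median of 18 and 9 reads, and was 0.72 against GFP and 0.87 against H3.3. Bhlhe40 (opposite 0610040F04Rik), a repressor that competes at E-boxes, differed by 0.65 ± 0.22 (adjusted p = 0.420), and Csnk1d (opposite Gm28192), a kinase that marks PER proteins for turnover, by 0.43 ± 0.19 (adjusted p = 0.448). Dbp (opposite Sphk2) stood at 0.33 ± 0.18 (adjusted p = 0.502) and Clock at 0.09 ± 0.18 (adjusted p = 0.859). Per2 and Arntl (BMAL1, opposite Gm45355) were too low to be tested, with Per2 medians of 4.45 CPM for Q5A, 3.87 for GFP and 4.51 for H3.3, and Arntl medians of 6.01, 2.58 and 3.74.

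The row of Hdc, the enzyme that makes histamine and defines the TMN, held few reads. It had 8, 5, 12, 41, 3, 29 and 3 reads in the Q5A libraries and 0 to 9 in the controls, or 1.39, 5.61 and 21.1 CPM in Q5A against 0.620 to 2.76 in GFP and 0 to 5.78 in H3.3, and did not pass the filter. In the fit over all times the Q5A effect at ZT4 minus that at the other times was 1.82 ± 0.54 (SE, adjusted p = 0.780). Of 10 markers of histaminergic neurons, 4 were tested and Hrh3 (opposite Gm17180), the histamine autoreceptor, was higher at p under 0.05 (0.48 ± 0.23, adjusted p = 0.465). Slc18a2 (opposite Gm29261), the vesicular monoamine transporter, stood at -0.15 ± 0.22, Gad1 at 0.25 ± 0.25 and Gad2 at 0.20 ± 0.34. Summed over the list, the markers had 131 to 320 CPM in Q5A, 143 to 215 in GFP and 132 to 301 in H3.3. Of the 11 genes of histamine synthesis, transport and reception, Hrh3 and Slc18a2 were the 2 that were tested.

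Hypothalamic neurons use neuropeptides to signal in feeding, arousal and stress. Of 25 genes 12 were tested, 4 were higher at p under 0.05 and 0 lower, and the median was 0.38, beside 5.45% higher and 5.12% lower over all rows. With classes scaled apart there were 3 higher and 1 lower with a median of 0.35. Cartpt, an appetite- and arousal-related peptide, had 2.80, 21.1 and 38.6 CPM in Q5A and 0.645, 7.25 and 14.6 in controls, with 5 of 7 libraries above the control range, and differed by 1.34 ± 0.37 (adjusted p = 0.420). Pmch (opposite Parpbp), the melanin-concentrating hormone precursor of the lateral hypothalamus, had 16.8, 89.5 and 207 CPM in Q5A against 4.52, 15.7 and 125, a difference of 1.47 ± 0.51 (adjusted p = 0.420) that was 0.76 within cohort 1 (adjusted p = 0.584). The Parpbp row opposite it, named after its values were seen, held 2257 to 55250 CPM in Q5A and 172 to 52960 in controls and differed by 0.73 ± 0.69. Tac1 and Pdyn, the dynorphin precursor, differed by 0.75 ± 0.27 and 0.92 ± 0.39. Pomc, of the arcuate nucleus, was below the filter, with 1.72, 8.41 and 34.8 CPM in Q5A, 0.678 to 3.1 in GFP and 0.798 to 8.35 in H3.3. Platr9, opposite the pituitary hormone gene Cga, had a median of 1.44 CPM in Q5A and 0 in each control.

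Of 10 mammillary and subthalamic markers 3 were tested and 2 were higher at p under 0.05 (5.45% over all rows), Tac1 and Nkx2-1, a ventral hypothalamic transcription factor, the second at 1.23 ± 0.41 (adjusted p = 0.420). Their summed level was 43.8 to 97.8 CPM in Q5A, 32.6 to 67.9 in GFP and 28.4 to 51.7 in H3.3, and 9 of the 10 had a higher median in Q5A than in controls. What the place of dissection contributes to the peptide values was not tested, and in tissue RNA more cells of a type and more RNA per cell cannot be told apart.

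Genes of synaptic release were all measured, with 20 of 20 tested, 3 higher and 0 lower at p under 0.05 (5.45% and 5.12% over all rows) and a median of 0.18. Within cohort 1 there were 4 higher and 1 lower, and with classes scaled apart 2 higher and 1 lower with a median of 0.02. The 3 were Stx1a, the plasma membrane SNARE syntaxin 1A (0.67 ± 0.24, adjusted p = 0.423), Sv2b (opposite 1500012K07Rik), a vesicle glycoprotein (0.58 ± 0.27), and Syn1 (opposite Araf), which tethers vesicles (0.39 ± 0.18). Cplx1, which clamps the SNARE complex, stood at -0.65 ± 0.33 (adjusted p = 0.484). Its highest controls were H3.3 cohort 1 replicate 4 (340 CPM), GFP replicate 4 (252 CPM) and the cohort 3 library of H3.3 (234 CPM). The other controls had 58.4 to 125 CPM and Q5A had 49.9 to 171. Of 28 ionotropic and GABA-B receptor genes 21 were tested and 0 were at p under 0.05, with a median of 0.18 (0.03). The nearest were Grik4 at 0.52 ± 0.27, Grin1 (opposite Grin1os) at 0.32 ± 0.18, Gria2 at 0.33 ± 0.20 and Grik2 at 0.43 ± 0.26. Of 16 genes of transmitter synthesis and transport 7 were tested and again 0 were, with Slc17a6, the vesicular glutamate transporter VGLUT2, at 0.40 ± 0.21.

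Potassium channels set how readily neurons fire. Of 25 genes 23 were tested, with a median of 0.03, 1 higher and 1 lower at p under 0.05. Kcnj6 (opposite Gm41505), a G-protein-gated inward rectifier, had 3.71, 6.01 and 8.24 CPM in Q5A and 0.906, 7.19 and 28.6 in controls (-0.77 ± 0.36, adjusted p = 0.454), so that its Q5A libraries lay within the control range. The highest controls were again GFP replicate 4 (25.8 CPM) and H3.3 cohort 1 replicate 4 (28.6 CPM). Kcnt1 and Kcnj10 stood at 0.45 ± 0.24 and 0.30 ± 0.18. In neurotrophin signalling, 21 of 28 were tested and 1 was higher, Crebbp, a histone acetyltransferase (0.49 ± 0.21, adjusted p = 0.440), beside Camk2b at 0.38 ± 0.19 and Mapk3 at 0.50 ± 0.26. Of the 23 immediate early and activity genes 8 were tested and Nptx2 alone was at p under 0.05. Vgf stood at 0.40 ± 0.21, Dusp1 (opposite Ergic1) at -0.43 ± 0.28 and Bdnf (opposite Gm45346) at -0.25 ± 0.30.

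Genes of energy supply and protein synthesis are listed next. Of 82 nuclear genes of oxidative phosphorylation 57 were tested, 48 were above 0, 11 were higher at p under 0.05 and 0 lower, and the median was 0.33. Of 81 cytosolic ribosomal protein genes 41 were tested, 30 were above 0, 8 were higher and 0 lower, also with a median of 0.33. Ndufa7 of complex I (0.67 ± 0.22), Atp5k and Atp5h of the ATP synthase (0.68 ± 0.24 and 0.66 ± 0.27) and Uqcrfs1 of complex III (0.64 ± 0.26) led the first list, and Rpl21 (0.69 ± 0.22), Rpl32 (opposite Cand2, 0.60 ± 0.22), Rpl4 (0.53 ± 0.19) and Rpl8 (0.58 ± 0.23) the second. Over all rows 5.45% were higher, and the class of coding rows with no opposite exon had 8.80% higher and a median of 0.16. With classes scaled apart the list medians were 0.22, with 6 higher and 1 lower, and 0.19, with 5 higher and 0 lower. Within cohort 1 they were 0.22, with 3 higher and 0 lower, and 0.18, with 3 higher and 2 lower. All 37 mitochondrially encoded rows had 0 reads. Over the 28 lists, 41 of 316 distinct rows were at p under 0.05, 39 higher and 2 lower, beside 527 higher and 495 lower of 9673 over all rows.

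Stress and immune lists held few such rows. Of 15 heat shock and cold-inducible genes 11 were tested, all above 0, with a median of 0.26 (0.11) and Hsp90ab1, an abundant chaperone, higher at 0.41 ± 0.17 (adjusted p = 0.440). Of 15 glucocorticoid-responsive genes 5 were tested and Mt1, a metallothionein, was higher at 0.57 ± 0.27 (adjusted p = 0.454). Of 20 genes of interferon response and antigen presentation 6 were tested, 0 at p under 0.05, with a median of -0.30. The class I gene H2-D1 had 7.68 to 23.5 CPM in Q5A, 5.43 to 84.5 in GFP and 8.99 to 14.8 in H3.3, and the high end was 1 GFP library, replicate 4. For H3.3 minus GFP, H2-K1 and H2-D1 stood at -1.39 ± 0.62 and -1.20 ± 0.51 (adjusted p = 1.00 for each).

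Cell type markers were examined in the same way. Neuronal markers (10 of 10 tested) had a median of 0.24. Rbfox3, the neuronal nuclear protein NeuN, stood at 0.33 ± 0.15 (adjusted p = 0.449) and Nefm (opposite Nefl), a neurofilament, at -0.46 ± 0.19 (adjusted p = 0.440). Nefm had 2396 to 4578 CPM in Q5A. It was highest in GFP replicate 4 (6798 CPM) and H3.3 cohort 1 replicate 4 (10421 CPM), with 3018 to 5648 in the other controls. Astrocyte markers (10 of 10) had a median of 0.35 (0.22 with classes scaled apart). All 10 had a higher median in Q5A than in the pooled controls, with Gja1, connexin 43, at 0.41 ± 0.20 (adjusted p = 0.455). Their summed level was 386 to 992 CPM in Q5A, 297 to 621 in GFP and 314 to 855 in H3.3. The medians of this sum were 542, 532 and 403 CPM in the same order, so that Q5A and GFP lay close. Oligodendrocyte markers (12 of 13 tested) had a median of -0.16 and microglial markers (6 of 12) of -0.18, with 0 at p under 0.05 in both. Thalamic markers (5 of 10) had a median of 0.05 with 0 at p under 0.05 and striatal markers (6 of 9 in the table) of 0.24, with Tac1 at p under 0.05. Vascular and ependymal markers were mostly too low to be tested, with 2 of 16 and 1 of 10. Of 10 pituitary markers 3 were tested, Chga was higher at 0.38 ± 0.16 (adjusted p = 0.440), and the hormone genes Tshb and Lhb had 29 to 104 and 4 to 26 reads per library. Cga and Ghrhr were at 0 reads in every ZT4 library, and the part of pituitary tissue was not tested.

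**Figure D5:**
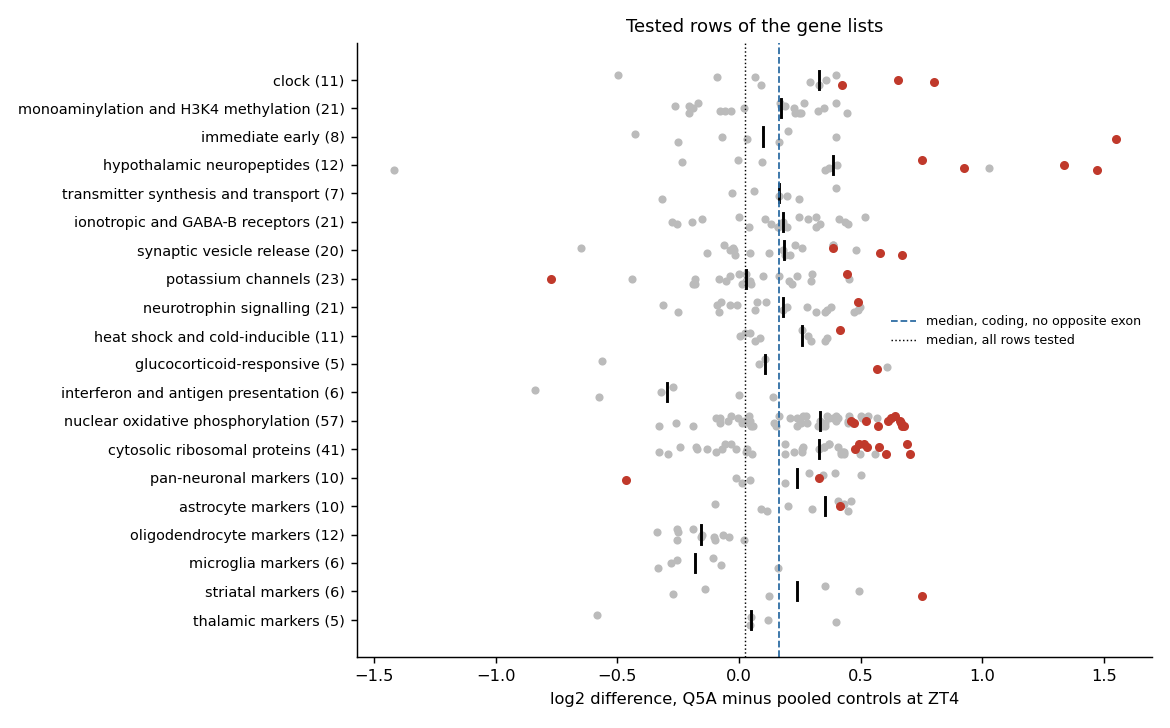
Log2 difference of Q5A minus pooled controls at ZT4 (x axis) for each tested row of the lists with at least 5 tested rows (y axis, number tested in brackets). Red points are at p under 0.05, short lines are list medians, and the vertical lines are the medians of all rows (0.02) and of coding rows with no opposite-strand exon (0.16). The medians of the oxidative phosphorylation and ribosomal lists (0.33 each) lie to the right of both lines.

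Rows of the X chromosome were counted apart. Of 191 tested rows on the X, 36 were higher and 5 lower at p under 0.05 (median 0.23), and of the 131 coding rows with no opposite exon 27 were higher and 1 lower (median 0.28), beside 320 higher and 47 lower of 3813 on autosomes (median 0.16). With classes scaled apart the X coding rows had 15 higher and 5 lower of 134 (median 0.12). Without the cohort 3 library of Q5A the X rows had 21 higher and 3 lower. The sexes of the animals are not in the labels, and their part was not tested.

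Whether a difference was particular to ZT4 was tested as the Q5A effect at ZT4 minus the mean effect at the other 5 times. Of 13254 rows, 424 were higher (3.2%) and 337 lower (2.54%) at p under 0.05 and 0 passed the adjusted threshold, with a smallest adjusted p of 0.780. The rows of smallest p were Kcnd3os (opposite the channel gene Kcnd3, -1.16 ± 0.29), RP23-37I24.1 (-1.47 ± 0.38), Slc6a3, the dopamine transporter (-5.21 ± 1.38), Chrna6, a nicotinic subunit of dopamine neurons (-2.52 ± 0.67), and Slc6a12, a betaine and GABA transporter (-1.45 ± 0.39). The ZT4 value of Slc6a3 rested on single control libraries. GFP replicate 4 had 113 CPM and H3.3 cohort 1 replicate 4 had 135. The cohort 3 library of H3.3 had 12.8, and any other at most 2.43. Those with 113 and 135 CPM are the libraries that the second principal component set apart, and they were also the highest in 3 more of these rows. In the same order they had 126 and 116 CPM of Kcnd3os (33.4 to 67.8 in the other controls), 121 and 160 of RP23-37I24.1 (15.5 to 54.99) and 11.6 and 21.2 of Chrna6 (0 to 1.82). In Q5A, Kcnd3os had 16.2, 29.4 and 59.5 CPM.

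Over the other 5 times, whose animals are all different, 202 rows were higher (1.52%) and 226 lower (1.71%) at p under 0.05 and 0 passed. Of the 10 higher rows named above, 7 had the same sign there, 0 at p under 0.05, with a median of 0.02. Of the 10 lower rows, 6 had the same sign, and Zfhx2 was at p under 0.05 (-0.29 ± 0.14, adjusted p = 1.000). Nptx2 went from 1.55 at ZT4 to 0.10 ± 0.21 over the other times, Ap2s1 from 0.67 to -0.05 ± 0.09 and Per1 from 0.80 to 0.01 ± 0.08. Such a mean takes in differences of both signs. At ZT0, ZT8, ZT12, ZT16 and ZT20, Nptx2 stood at 0.55, 0.47, -0.11, 0.35 and -0.74. In the same order Ap2s1 stood at -0.05, 0.06, 0.14, 0.04 and -0.46, and Per1 at 0.46, 0.28, -0.12, -0.17 and -0.39. Bc1 (0.59 ± 0.19, adjusted p = 1.000), Srpk2 (0.38 ± 0.09, adjusted p = 0.869) and Gm17275 (0.45 ± 0.12, adjusted p = 0.869) were higher there too at an unadjusted p under 0.05. At ZT8 the median of Bc1 was 648 CPM for Q5A, 81.2 for GFP and 308 for H3.3 and at ZT20 it was 289, 239 and 536. Coding rows with no opposite exon had a median of 0.02 at ZT0, then 0.14 at ZT4 and 0.17 at ZT8. The later medians were 0.02 (ZT12), 0.03 (ZT16) and -0.18 (ZT20). Their mean share of reads was 13.4% in Q5A and 11.8% in controls at ZT4, 13.1% and 10.7% at ZT8, and 11.3% and 13.9% at ZT20.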

How the data were processed

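RNA-seq of the TMN was analysed from gene counts deposited by the authors, 1 table per library. Per the study's methods, stranded poly(A) libraries were aligned with STAR to GRCm38 and counted with HTSeq over exons by gene name. Summary rows that name no gene stayed out of totals and tests, and 18 files of no listed sample were not used. The near-identical Q5A pair was averaged. Of 54087 gene names, 28499 matched GENCODE vM21, whose coordinates are printed. Groups came from the labels of virus and time.

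Counts were tested with edgeR 4.0.16 (TMM, quasi-likelihood, low rows removed with a minimum count of 10) and adjusted by Benjamini-Hochberg over all rows tested, with an adjusted p under 0.01 as the call and an unadjusted p under 0.05 as a description. An SE is the size of the log2 difference divided by the square root of the F statistic. Shares and depths were compared by exact permutation tests in scipy 1.17.1. On simulated counts with 100 rows changed by 1 and 100 by 2 on the log2 scale, the pooled test recovered 66 and 99, the test against GFP 50 and 98, against H3.3 33 and 91, between controls 33 and 93, and of ZT4 against the other times 48 and 98. Unchanged rows that were called numbered 1, 4, 1, 0 and 2 in the same order. The changed rows were drawn only from rows above a minimum expected count, and no cohorts or deviating libraries were simulated. The recovery therefore does not cover rows of few reads or the cohort structure of the data. With 1 animal per library, p-values measure the spread between animals. PCR reads carried no molecular identifiers.

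The members and gene lists were chosen with earlier results of these data known. Rows were named by rule. For the pooled controls they were the 10 annotated rows of smallest p in each direction and 2 unannotated in each. They were 3 in each direction for each virus pair and 5 for the test of ZT4 against the other times. Each list gave up to 4 tested rows of smallest p, whatever the direction, and a fixed set of genes was added. Pgam5, Ubxn8, Gm17275, Bc1-ps1, Parpbp and RP24-80P9.3 were named after their values were seen. Alternatives were DESeq2 1.42.0, other scaling and filters, cohort terms, a replicate block and leaving out each library. Leaving out cohort 3, the class share as a covariate and scaling each row class to its own total, with TMM inside the class, were added after seeing the data. X inactivation and Y-linked genes were too low to be tested. Some items are not reported here.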

Additional observations from a re-analysis of the deposited data

Results flagged for a closer look

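Of 87 groups of 4 to 10 libraries examined, 10 held a library far from the rest by Dixon's criterion, which chance would flag in about 1 in 20 groups. In the cohort 3 library of H3.3, Bc1 stood at 1311 CPM with the nearest library at 202, Ap2s1 at 42.5 CPM with the nearest at 28.1, and the share of reads in coding rows with no opposite exon at 19.1% with the nearest at 11.6%. In GFP, replicate 4 had 60.6 CPM of Bc1 with the nearest at 137. GFP replicate 2 had 53.4 CPM of Zcchc3 (nearest 39.2), 22.6 CPM of B9d1 (nearest 31.6) and the lowest total of its group, 1341591 counts (nearest 1588024). Q5A cohort 2 replicate 1 had 102 CPM of Myh6 (nearest 45.1) and 32.3 CPM of B9d1 (nearest 19.8). H3.3 cohort 1 replicate 2 had 18.1 CPM of Ctnnal1 (nearest 9.71).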

How the results depend on the processing

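Counts of rows at an adjusted p under 0.01 are given here. For Q5A against the pooled controls, 0 became 8 with no filter, 2 with cohort as a covariate, 1 within cohort 1, 1 without the cohort 3 libraries and 0 to 1 with each library left out. Against GFP, 1 became 82 with no filter, 2 with cohort as a covariate, 5 within cohort 1, 0 with a robust fit, 0 with both near-identical libraries kept, 0 with dispersions from all 18 groups, 0 with the class share as a covariate, 0 with classes scaled apart and 0 to 1 with each library left out. Against H3.3, 0 became 34 with no filter and 2 within cohort 1, and stayed 0 with each library left out. For H3.3 minus GFP, 0 became 23 with no filter. Over the other 5 times, 0 became 1 with cohort as a covariate and 10 within cohort 1. The 41 list rows at an unadjusted p under 0.05 became 25 with the class share as a covariate, and 8 were found on the opposite-strand rows. The causes were not tested.

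Replicate numbers were not taken to pair the libraries, and whether they did was not tested. Within cohort 1, same-numbered libraries of different viruses correlated at -0.40 to 0.42 and differently numbered ones at -0.32 to 0.30. The highest value, 0.42, was that of GFP replicate 4 with H3.3 replicate 4, the libraries that the second principal component set apart. With the replicate block the counts were 1 for the pooled controls, 2 against GFP, 9 for H3.3 minus GFP and 1 over the other 5 times, and Bc1 differed by 1.64 with an adjusted p of 0.00982 against the pooled controls. With each library left out, rows at an unadjusted p under 0.05 for the pooled controls ranged from 302 to 1306 higher and 288 to 925 lower. The same counts ranged from 349 to 855 and 324 to 677 against GFP, from 104 to 984 and 116 to 528 against H3.3, from 41 to 120 and 35 to 116 for H3.3 minus GFP, and from 190 to 850 and 213 to 566 for ZT4 against the other times. Rows of few reads, Hdc among them, had too few counts in gene rows to be tested; 25949298 to 41189379 reads per library fell in no gene row.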
